A study of Bos taurus with 35 samples.

Results

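The cytotoxic and natural killer (NK) cell genes described here were KLRK1, KLRD1, PRF1, CTSW, CD96, CD69 and CCL5. They were picked by symbol from the study's published list of differentially expressed (DE) genes and matched by Ensembl ID to the count table, and all 7 were among the 14630 genes that passed the filter on low counts, of 27607 in the table. Because that list came from the same samples, contrasted with 0 h, the changes of these genes against 0 h chose them and are given below as a description, with no test. The samples were cores of *longissimus thoracis*, the long muscle of the back, from 7 British × Continental crossbred heifers of 525 to 635 kg at slaughter. Each carcass was sampled 45 min after death (the 0 h samples) and again after 6, 24, 48 and 72 h in the cold, which gave 35 RNA-Seq libraries of whole tissue with no sorting of cells. The heifers, young females reared under like conditions, received no experimental treatment, and each was sampled once per time point on the left carcass side. The groups therefore differed in the time that the carcasses had spent in a refrigerated drip cooler.

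Natural killer cells and cytotoxic T lymphocytes kill infected or damaged cells by releasing granules that hold perforin and granzymes. Receptors of the C-type lectin and immunoglobulin families on their surface read ligands on the target cell and set whether the granules are released. In resting skeletal muscle these cells are sparse and lie between the fibres and in the vessels, and muscle fibre RNA makes up most of a core. The 7 genes are used by both cell types, so that their level in whole tissue does not tell NK cells from cytotoxic T cells, and a different number of such cells cannot be told apart from a different amount of RNA per cell. The cores were muscle by their markers: CKM, the creatine kinase of muscle, was the named gene of that kind and ranged from 11235 to 21705 CPM, the unit explained below, over the 35 samples.

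The libraries held between 20568418 and 104275821 counted reads (median 40133660), and the 7 genes were thinly covered. Of their 245 values, 40 rested on fewer than 10 reads and none was 0. KLRD1 was the shallowest, with 1 to 58 reads per sample and 15 of 35 samples under 10 reads, and CTSW was the deepest, with 26 to 508 reads. Levels below are CPM after trimmed mean of M-values (TMM) normalization, that is the reads of a gene as a share of the library, scaled to a fixed total and corrected for composition. They compare time points and animals within a gene, and were not set side by side between genes, since gene lengths were not used.

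All 7 genes stood higher at 48 h and 72 h than at 0 h, by between 1.64 and 2.52 fold, and none stood lower. A gene was called upregulated at a false discovery rate (FDR) below 0.05 and a fold change above 1.5 in edgeR's model with animal as a block. By that rule 0 of the 7 were upregulated at 6 h, where 0.349% of all genes tested were, and 1 of 7 at 24 h, where 0.725% were. At 48 h 6 of 7 were upregulated beside 2.96% of all genes, and at 72 h 7 of 7 beside 9.8%. These shares follow from how the genes were chosen and nothing is read from them. At 6 h, 1 of the 7 had an unadjusted p below 0.05 in edgeR's quasi-likelihood test, beside 14.5% of all genes. DESeq2 and limma voom also called 0 of the 7 at 6 h. In time order, the median log2 fold change of the 7 was 0.26, 0.52, 1.02 and 1.13, while the median over all genes tested stayed between -0.00 and 0.01.

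**Figure D1:**
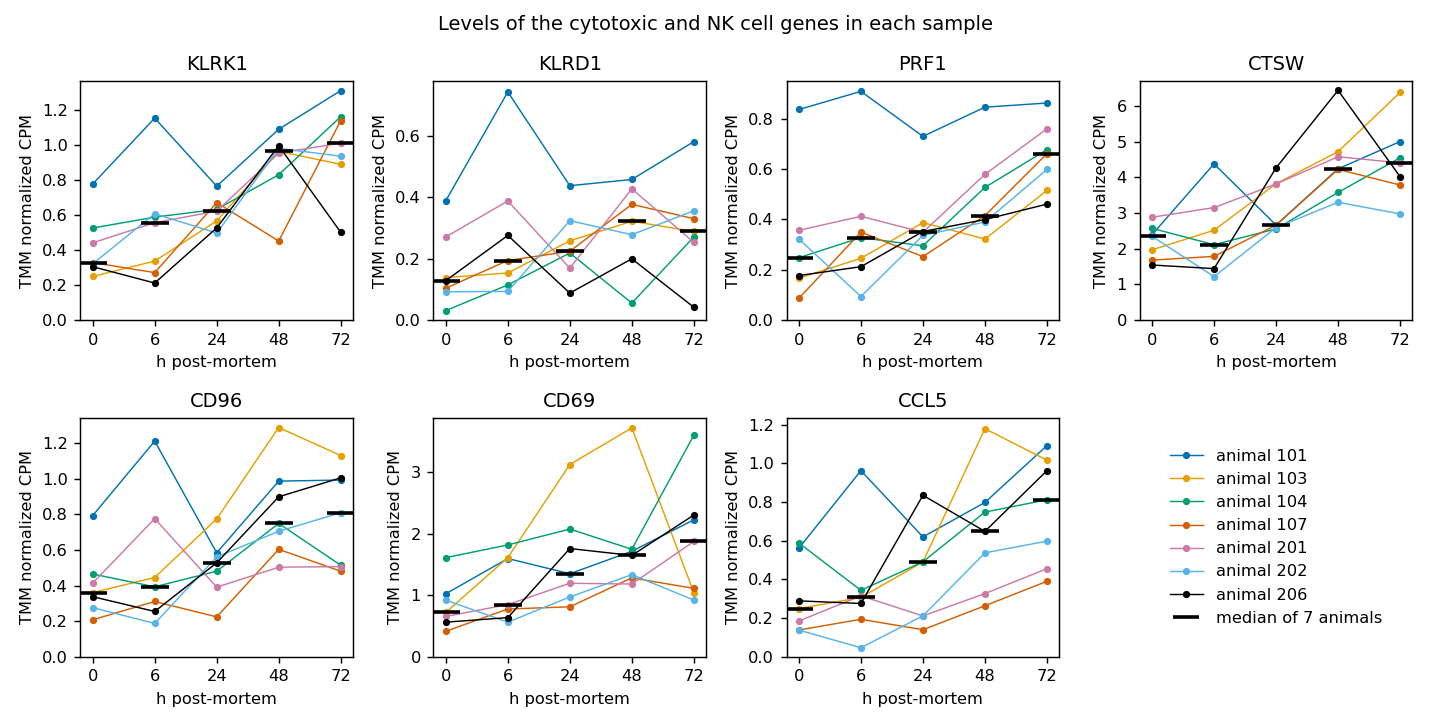
Level of each of the 7 genes in TMM normalized CPM (y axis, from 0) at 0, 6, 24, 48 and 72 h *post-mortem* (x axis, equally spaced), with 1 line per animal and a bar at the median of 7 animals. The median at 48 h was above that at 0 h in every panel, animal 101 lay on top for PRF1 at all 5 time points, and lines of different animals crossed in each gene.

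Of the receptors, KLRK1 (ENSBTAG00000004917) encodes NKG2D, an activating receptor that recognises stress-induced ligands on other cells. Its level at 0 h ran from 0.25 CPM in animal 103 to 0.778 in animal 101, with a median of 0.329. Its lowest, median and highest CPM were 0.212, 0.557 and 1.16 at 6 h, and 0.498, 0.623 and 0.766 at 24 h. Samples of 48 h spanned 0.452 to 1.09 CPM with 0.965 in the middle, and those of 72 h spanned 0.502 to 1.31 with 1.01. All 7 animals were higher at 48 h and at 72 h than at 0 h, and at each of these time points 6 of the 7 samples lay above the highest 0 h sample, so that the groups overlapped by 1 sample. The spread was narrowest at 24 h, where every sample lay within the range of 0 h. Fitted log2 fold changes against 0 h, in time order, were 0.26, 0.52, 1.07 and 1.23, with standard errors of 0.22, 0.21, 0.2 and 0.2.

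KLRD1 (ENSBTAG00000046389) encodes CD94, which pairs with NKG2 chains into receptors for MHC class I related molecules. In the RefSeq gene table (assembly ARS-UCD2.0) it is the direct neighbour of KLRK1, with NKG2A and NKG2C close by, and killer cell lectin-like receptor genes in cattle form a family of related copies, so that reads of similar copies could have been assigned to it or lost from it. At 0 h its lowest, median and highest CPM were 0.031, 0.129 and 0.389. They were 0.0936, 0.194 and 0.743 at 6 h, and 0.0879, 0.224 and 0.438 at 24 h. Samples of 48 h spanned 0.0554 to 0.458 CPM with 0.322 in the middle, and those of 72 h spanned 0.0419 to 0.581 with 0.289. The groups overlapped at every time point: at 72 h 1 of 7 samples lay above the highest 0 h sample, and 5 of 7 animals were higher than at 0 h. The lowest value at 72 h, that of animal 206, was a single read. Fitted log2 fold changes against 0 h, in time order, were 0.67, 0.57, 0.74 and 0.87, with standard errors of 0.33, 0.33, 0.33 and 0.32. At 6 h all 7 animals were higher in KLRD1 than at 0 h, although animal 202 had 2 reads at both time points (0.092 and 0.0936 CPM). Its call at 72 h was lost without the animal block (log2 fold change 0.84), with library totals as the only scaling (0.68), and when animal 103, 107 or 202 was left out (0.82, 0.77 and 0.76). It was also lost with RNA integrity as a covariate (0.72) and with only the 14 samples compared (0.83), while at 48 h that 14-sample fit (0.81), the likelihood ratio test (0.78) and DESeq2 (0.82) called KLRD1.

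CD96 (ENSBTAG00000014441) encodes a receptor of the immunoglobulin family, also named TACTILE, that binds nectin-like molecules. At 0 h its lowest, median and highest CPM were 0.208, 0.36 and 0.793. They were 0.187, 0.393 and 1.21 at 6 h, and 0.224, 0.528 and 0.774 at 24 h. Samples of 48 h spanned 0.503 to 1.29 CPM with 0.748 in the middle, and those of 72 h spanned 0.48 to 1.13 with 0.808. All 7 animals were higher at 48 h and at 72 h than at 0 h, and 3 samples at 48 h and 4 at 72 h lay above the highest 0 h sample, that of animal 101. Fitted log2 fold changes against 0 h, in time order, were 0.28, 0.31, 0.95 and 0.92, with standard errors of 0.26, 0.25, 0.25 and 0.24. With the RNA integrity number (RIN) of each sample as a covariate the value at 72 h was 0.61 and CD96 was no longer called.

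Of the granule proteins, PRF1 (ENSBTAG00000001008) encodes perforin, which forms pores in the membrane of the target cell. At 0 h its lowest, median and highest CPM were 0.0866, 0.248 and 0.836. They were 0.0936, 0.327 and 0.908 at 6 h, and 0.252, 0.349 and 0.729 at 24 h. Samples of 48 h spanned 0.322 to 0.845 CPM with 0.415 in the middle, and those of 72 h spanned 0.46 to 0.862 with 0.661. Animal 101 was the highest at every time point and hardly moved, with 0.836 CPM at 0 h beside 0.862 at 72 h, a difference of 0.04 on the log2 scale, whereas the corresponding difference in animal 107, the lowest at 0 h, was 2.45. All 7 animals were higher at 48 h and at 72 h, and 1 sample at each of these time points, that of animal 101, lay above the highest 0 h sample. Fitted log2 fold changes against 0 h, in time order, were 0.26, 0.33, 0.71 and 1.13, with standard errors of 0.24, 0.23, 0.23 and 0.22. At 48 h the call was lost without the block (0.66), without animal 107 (0.58) and with counts thinned to the smallest library (0.37), and without animal 101 the value at 72 h was 1.5.

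CTSW (ENSBTAG00000020773) encodes cathepsin W, a papain-like protease found in NK cells and cytotoxic T cells. At 0 h its lowest, median and highest CPM were 1.54, 2.35 and 2.88. They were 1.22, 2.11 and 4.38 at 6 h, and 2.56, 2.66 and 4.26 at 24 h. Samples of 48 h spanned 3.3 to 6.44 CPM with 4.24 in the middle, and those of 72 h spanned 2.98 to 6.38 with 4.4. CTSW was the gene of the 7 whose groups separated: all 7 samples at 48 h and all 7 at 72 h lay above the highest 0 h sample. Fitted log2 fold changes against 0 h, in time order, were 0.11, 0.56, 1.02 and 1.04, with standard errors of 0.19, 0.18, 0.18 and 0.18. Without animal 101 the value at 6 h was -0.07.

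CD69 (ENSBTAG00000002135) encodes an early activation antigen of lymphocytes that holds them in tissue by acting on the receptor for sphingosine 1-phosphate. In the RefSeq gene table it overlaps the neighbouring gene CLECL1, and reads in the overlap may not have been counted. At 0 h its lowest, median and highest CPM were 0.416, 0.721 and 1.61. They were 0.562, 0.848 and 1.82 at 6 h, and 0.812, 1.35 and 3.12 at 24 h. Samples of 48 h spanned 1.18 to 3.72 CPM with 1.65 in the middle, and those of 72 h spanned 0.922 to 3.6 with 1.87. All 7 animals were higher than at 0 h at 24, 48 and 72 h, and 3, 4 and 4 samples lay above the highest 0 h sample. At 72 h animal 202 was hardly higher, with 0.922 CPM beside 0.92 at 0 h. The animals took different courses: animal 103 climbed to the highest value at 24 and 48 h and then stood at 1.04 CPM at 72 h, while animal 104 held the highest value at 0, 6 and 72 h. Fitted log2 fold changes against 0 h, in time order, were 0.44, 0.95, 1.13 and 1.14, with standard errors of 0.26, 0.25, 0.26 and 0.25. CD69 was the gene called at 24 h, and that call was lost without the block (log2 fold change 0.95) and when animal 107, 201 or 206 was left out (0.94, 0.96 and 0.85).

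CCL5 (ENSBTAG00000053649) encodes the chemokine RANTES, which activated T cells and NK cells secrete and which draws in leukocytes. At 0 h its lowest, median and highest CPM were 0.138, 0.25 and 0.588. They were 0.0468, 0.307 and 0.963 at 6 h, and 0.14, 0.49 and 0.835 at 24 h. The 48 h samples spanned 0.264 to 1.18 CPM with 0.649 in the middle, and those of 72 h spanned 0.39 to 1.09 with 0.812. All 7 animals were higher at 48 h and at 72 h, and 4 and 5 samples lay above the highest 0 h sample. In time order, log2 fold changes against 0 h were 0.16, 0.39, 1.07 and 1.33, with standard errors of 0.27, 0.26, 0.26 and 0.25, the last being a fold change of 2.52. Without the block it was 1.05 at 48 h and not called, and without animal 101 it was -0.05 at 6 h.

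**Figure D2:**
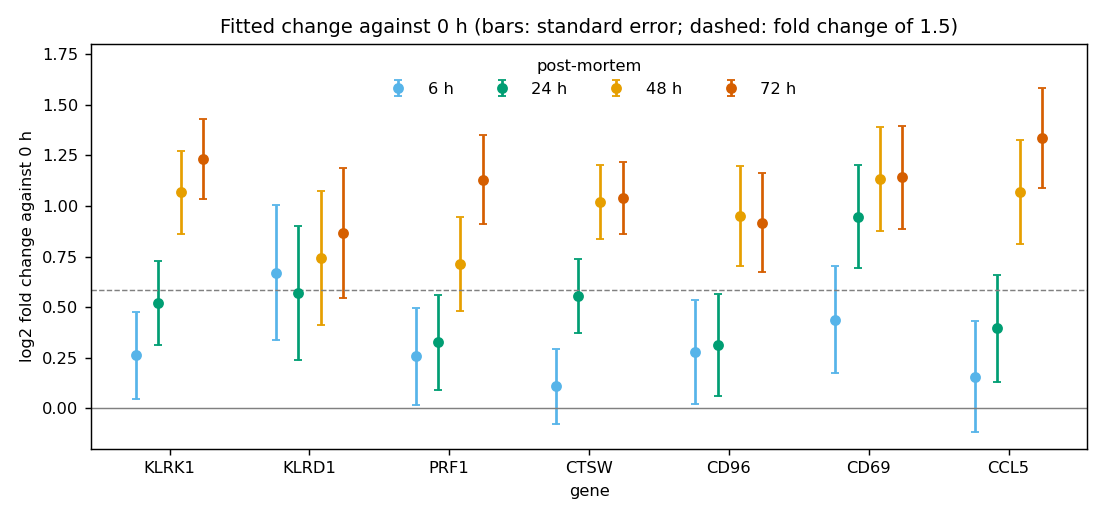
Fitted log2 fold change against 0 h (y axis) of the 7 genes (x axis) at 6, 24, 48 and 72 h, with bars of 1 standard error and a dashed line at a fold change of 1.5. Values at 6 h lay between 0.11 and 0.67, and at 72 h they lay between 0.87 for KLRD1 and 1.33 for CCL5.

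By FDR, not by fold change, the calls nearest to the threshold were KLRD1 at 72 h (log2 fold change 0.87) and CD69 at 24 h (0.95). The values nearest to it on the other side were CTSW at 24 h (0.56), which also fell short of 1.5 fold, and KLRD1 at 48 h (0.74). They belong to the contrasts by which the genes were chosen and are listed as a description.

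Between neighbouring time points of the same model, the median log2 difference of the 7 genes was 0.26 for the step to 6 h, 0.24 for that to 24 h, 0.46 for that to 48 h and 0.12 for that to 72 h. With 1 animal left out, the median for the step to 24 h lay between 0.04 (without animal 206) and 0.45 (without animal 101), that to 48 h between 0.43 and 0.5, and that to 72 h between 0.03 (without animal 104) and 0.21 (without animal 206). The largest fitted step was not the same one in every gene, and whether the steps of a gene differed was not tested. CCL5, CD96, KLRK1 and CTSW had their largest difference between 24 and 48 h, with 0.67 (standard error 0.25), 0.64 (0.24), 0.55 (0.2) and 0.46 (0.17). For CTSW the step from 6 to 24 h was about as large, 0.45 (0.18). CD69 had its largest earlier, 0.51 (0.25) between 6 and 24 h. Its step between 0 and 6 h was 0.44 (0.26), and its later steps were 0.18 (0.24) and 0.01 (0.24). KLRD1 had its largest between 0 and 6 h, 0.67 (0.33), and 0.17 (0.31) between 24 and 48 h. That first step of KLRD1 rested on 1 to 27 reads per sample at 0 h and 2 to 27 at 6 h. PRF1 gained 0.39 (0.22) and 0.42 (0.21) in the last steps. Between 48 and 72 h the other differences were 0.02 (0.17) for CTSW, -0.04 (0.23) for CD96, 0.16 (0.19) for KLRK1, 0.12 (0.31) for KLRD1 and 0.27 (0.23) for CCL5. These differences come from samples that also chose the genes, and no test of them is given.

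Differences between animals are a measure that the choice of genes by time did not use directly, since every animal was sampled at every time point. The test of animals shares its estimate of the spread with the contrasts by time, so its FDR values are not wholly free of that choice. In edgeR's quasi-likelihood test of the 6 animal coefficients, all 7 genes differed between animals, with FDR values of 1.9e-05 for CCL5 and PRF1, 0.00051 for CD69, 0.00066 for KLRD1, 0.0022 for KLRK1, 0.0026 for CD96 and 0.036 for CTSW. Of all genes tested 82.5% differed between animals by the same test, a background near which 7 of 7 says nothing particular to these genes. After removing the time point means, the highest and the lowest animal were 1.83 apart on the log2 scale for KLRD1, 1.71 for CCL5, 1.35 for PRF1 and 0.64 for CTSW. Animal identity carried 49.1% of the variance of log2 CPM for KLRD1, against 12.5% for time point, and 15.1% for CTSW, against 58.4% for time point.

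Animal 101 stood above the time point means for all 7 genes, with a median deviation of 0.68 on the log2 scale, and the deviations were 1.08 for KLRD1, 1.02 for PRF1 and 0.87 for CCL5. All 7 genes lay below the means in animal 202 (median -0.31), and 6 of 7 did in animal 107 (median -0.33), where KLRD1 was the exception at 0.05. Animal 206 also had 6 of 7 below them (median -0.08), with CCL5 as the exception. The genes did not rank the animals alike: in animal 104, CD69 deviated by 0.69 and CCL5 by 0.44 while KLRD1 deviated by -0.75, and in animal 206 CCL5 deviated by 0.35 while KLRD1 deviated by -0.62. Of the T cell markers, all 14 that had a name lay above the means in animal 101 (median 0.33) and 12 of 14 lay below them in animal 202 (median -0.21). Some other lists had animal 201 on top. Its median deviation was 0.37 against 0.19 in animal 101 for 6 named receptors and adaptors. It was 0.36 against 0.14 for 7 named cytokines, chemokines and their receptors, and 0.6 against 0.07 for the B cell markers. All 6 and all 7 of those receptor and cytokine genes lay above the means in animal 101. Animal 101 was on top for 3 named transcription factors (0.31) and for the pan-leukocyte markers (0.25). Without animal 101, KLRK1 (FDR = 0.12), KLRD1 (FDR = 0.18) and PRF1 (FDR = 0.09) were no longer called in edgeR's test of animals and the other 4 were, beside 79.5% of all genes.

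**Figure D3:**
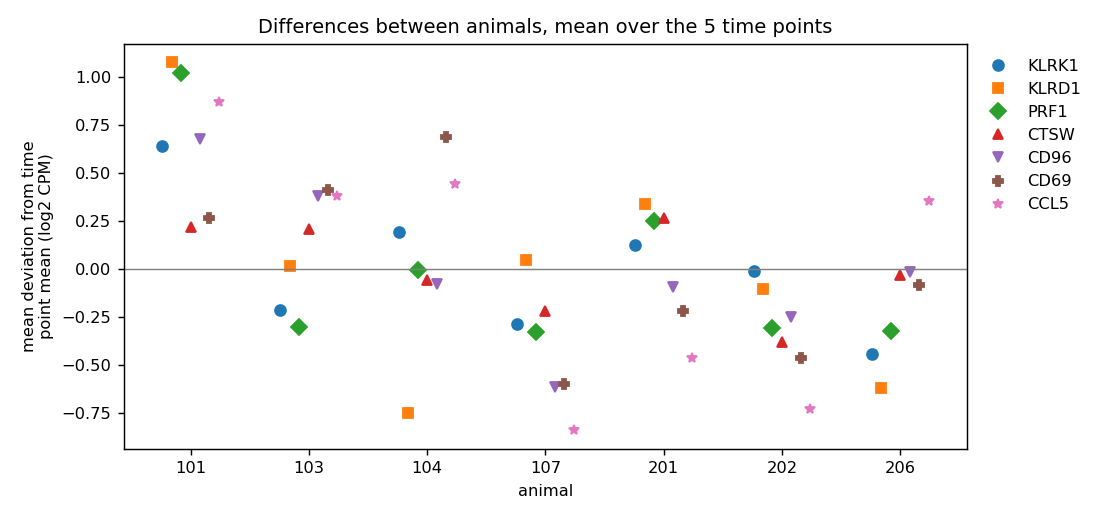
Mean deviation from the time point means in log2 CPM (y axis) of the 7 genes (symbols) in each of the 7 animals (x axis), averaged over 5 time points. All 7 symbols lie above 0 in animal 101 and below 0 in animal 202.

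The genes varied together across the 35 samples. With time point means removed, Pearson's r between 2 of the 7 genes had a median of 0.46 over 21 pairs, with 20 above 0, while the median over all pairs of genes tested was -0.00. The closest pair was CD96 and CCL5, with an r of 0.81, followed by CD69 and CCL5 with 0.66. The neighbours KLRK1 and KLRD1 had an r of 0.41, and the pair below 0 was KLRD1 and CD69 (-0.12). These samples share animals and libraries, and the values describe likeness over 35 samples. The median r was 0.21 without animal 101.

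The named genes whose profile over the 35 samples was most like the mean standardised profile of the 7 were CD3E (r = 0.87), CD52 (0.86), RAC2 (0.85), ZAP70 (0.85), LCK (0.84), CD8A (0.84), CD3G (0.83) and DGCR6L (0.81). CD3E and CD3G encode chains of the T cell receptor complex, ZAP70 and LCK kinases that it signals through, and CD8A a coreceptor of cytotoxic T cells. With time point means removed they were CD52 (0.76), CD3G (0.76), CD3E (0.75), RAC2 (0.74), MPP4 (0.71), HRAS (0.71), PVRIG (0.71) and CD8A (0.7), and 4 genes without a name ranked among the first 8. PVRIG encodes an inhibitory receptor of T and NK cells. Names were at hand only for genes in the lists of DE genes read here, which were cut short for downregulation at 72 h: 188 of the 2256 genes downregulated then in edgeR's fit were on none of them. The ranking therefore passes over genes that were never called and over some that were called at 72 h only.

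The pathway lists held 69 genes with a role in killing by lymphocytes (partner receptors and adaptors, granule proteins, release machinery, transcription factors, cytokines and their receptors). Among the 69 were 6 partners of CD69, CD96 and KLRK1 outside the killer cell. Of the 69, 19 had a name in the study's list of DE genes, which means that each had been called at some time point. A gene downregulated at 72 h alone may be missing among them. The named gene of the 6 partners was NECTIN1. None of the 19 was called at 6 or 24 h in either direction. In edgeR's quasi-likelihood test 2 of the 19 had an unadjusted p below 0.05 at 6 h and 8 at 24 h. The same was so for 14.5% and 23% of all genes. Among all genes, 0.185% were downregulated at 6 h and 0.95% at 24 h. At 48 h 12 of the 19 were upregulated and 3 downregulated, beside 2.96% and 6.3% of all genes. At 72 h 11 were upregulated and 5 downregulated, beside 9.8% and 15.4% of all genes. The count of downregulated genes at 72 h may be too low because that list was cut short. The median log2 fold change of the 19 was 0.64 at 48 h and 0.68 at 72 h, and given how the names were obtained these counts are a description.

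Among receptors and adaptors, HCST, which encodes DAP10, the adaptor through which NKG2D signals, took the same direction as KLRK1. Its mean level was 0.127 CPM at 0 h and 0.398 at 72 h, and its log2 fold changes were 1.17 (standard error 0.41) at 48 h and 1.61 (0.39) at 72 h. At 48 h that call was lost when animal 103, 107, 202 or 206 was left out (1.02, 1.12, 1.04 and 1.08). CRTAM, a receptor of activated CD8 T cells and NK cells for a nectin-like molecule, had the largest value of the list at 48 h, 1.5 (0.27), and stood at 1.31 (0.27) at 72 h. CD226, the activating receptor that shares ligands with CD96, went the other way, with -0.71 (0.23) at 48 h and -0.95 (0.23) at 72 h. FCGR3A, the Fc receptor CD16 of NK cells that monocytes and macrophages carry as well, fell from a mean of 2.3 CPM at 0 h to 0.964 at 72 h (log2 fold change -0.84 at 48 h and -1.32 at 72 h). Without the animal block neither CD226 (-0.69) nor FCGR3A (-0.78) was called at 48 h, and CD226 (-0.60) was not called there without animal 107. NECTIN1, which encodes a nectin that CD96 can bind, had a log2 fold change of -0.47 (0.13) at 48 h, short of the fold change threshold, and was downregulated at 72 h (-0.72, 0.13).

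Of the granule list, the named gene beside PRF1 and CTSW was CST7, which encodes cystatin F, an inhibitor of lysosomal cathepsins in cytotoxic cells. Its log2 fold change was 0.71 (standard error 0.22) at 48 h, 0.53 and not called without animal 202, and 0.87 (0.21) at 72 h. UNC13D encodes Munc13-4, which primes cytotoxic granules for release, and had values of 0.62 (0.1) and 0.79 (0.09). The transcription factor genes ZNF683, which encodes Hobit of tissue-resident lymphocytes, and STAT4, which acts downstream of interleukin 12, were upregulated at 48 h (0.86 and 0.76) and at 72 h (0.98 and 0.91). IKZF3, which encodes Aiolos, was upregulated at 48 h (0.77) and not at 72 h (0.46). That call of IKZF3 was lost without animal 107, 201 or 206 (0.71, 0.72 and 0.51), and without animal 101 the gene was called at 72 h (0.66).

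CCR1, a receptor of CCL5, had values of the opposite sign to the ligand, whose log2 fold change was 1.07 at 48 h and 1.33 at 72 h. CCR1 had -0.52 (standard error 0.16) at 48 h and was downregulated at 72 h (-0.78, 0.16). Without animal 103 or 107 CCR1 was called at 48 h as well (-0.60 and -0.59). XCL1, a chemokine that NK cells and CD8 T cells release together with CCL5, was upregulated at 48 h (1.03, 0.32) and 72 h (1.33, 0.31) from a mean of 0.109 CPM at 0 h, and its call at 48 h was lost without the block and without animal 101 (0.90). IL12RB1, a subunit of the interleukin 12 receptor, was also upregulated (0.84 and 1.11), although at 48 h not without the block (0.88) or animal 107 (0.74). IL15, the cytokine on which NK cells depend, was downregulated at 72 h (-0.61, 0.1) and fell short of the fold change threshold without animal 103 (-0.56).

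Other settings also ended calls of these pathway genes. With RIN as a covariate the calls at 48 h of HCST (0.84), IL12RB1 (0.70), IKZF3 (0.58), UNC13D (0.51) and CD226 (-0.60) and the call at 72 h of IL15 (-0.50) were lost. With counts thinned to the smallest library, CST7 lost its call at 48 h (0.47) and at 72 h (0.32), and IKZF3 (0.63) and CD226 (-0.71) lost theirs at 48 h. With library totals as the only scaling, UNC13D was not called at 48 h (0.53) and CCR1 was (-0.61).

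**Figure D4:**
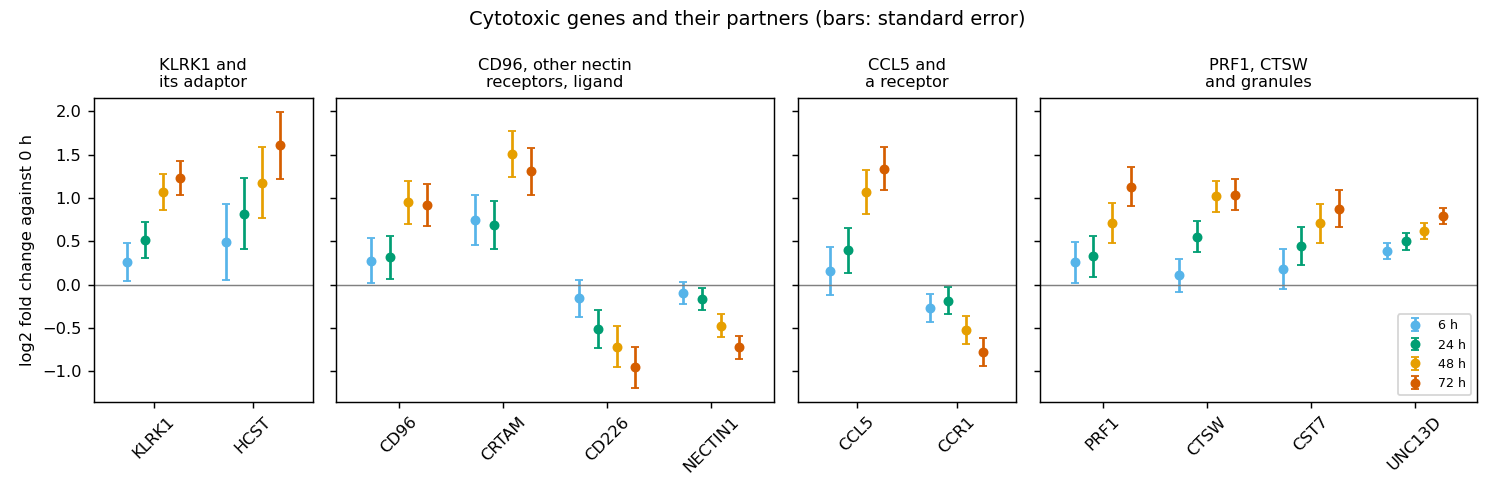
Fitted log2 fold change against 0 h (y axis, bars of 1 standard error) at 6, 24, 48 and 72 h for KLRK1 and its adaptor, for CD96 with related receptors and a ligand, for CCL5 with its receptor CCR1, and for PRF1 and CTSW with other granule genes. HCST and CRTAM lie above 0 at 48 and 72 h with KLRK1, CD96, CCL5, PRF1 and CTSW, and CD226, NECTIN1 and CCR1 lie below 0.

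Markers of other cell types moved in both directions over the same hours. A marker had a name only if the study had called it at some time point, so the counts below are a description. Among all genes, 0.725%, 2.96% and 9.8% were upregulated at 24, 48 and 72 h, and 0.95%, 6.3% and 15.4% were downregulated. Of 17 T cell markers 14 had a name, and their summed level ranged from 11.7 to 19.3 CPM at 0 h, 10.8 to 29.3 at 6 h, 17 to 25.1 at 24 h, 23.5 to 30.4 at 48 h and 22.4 to 30.8 at 72 h. No sample at 48 or 72 h lay below the highest 0 h sample of that sum. ZAP70 and CD8A were the T cell markers called at 24 h (log2 fold changes of 0.75 and 0.61), and all 14 were called upregulated at 48 h and at 72 h. Of 10 macrophage and monocyte markers 7 had a name, with sums of 47.1 to 155 CPM at 0 h, 35.5 to 75.3 at 48 h and 16 to 53 at 72 h. Of these, 5 of the 7 were downregulated at 48 h and all 7 at 72 h. The 5 adipocyte markers, all named, were downregulated from 24 h onward, with a summed median of 169 CPM at 0 h, 9.98 at 24 h and 6.27 at 72 h. Both named pan-leukocyte markers, RAC2 and ARHGDIB of 10 listed, were upregulated at 72 h, with sums of 16.7 to 23.1 CPM at 0 h and 23.9 to 38.9 at 72 h. Both named B cell markers of 7 were upregulated at 48 h (sums of 0.208 to 0.542 CPM at 0 h and 0.608 to 1.14 at 48 h). None of the named T cell, macrophage, B cell or pan-leukocyte markers was at 0 in any sample, and no endothelial or mast cell marker had a name here, so that whether any of them was downregulated at 72 h is not given. Of other lists, the named neutrophil marker S100A9 was upregulated at 48 h (log2 fold change 0.99) and not at 72 h (-0.29), the named fibroblast marker PDGFRA was downregulated at 72 h (-1.01), and the pericyte marker RGS5 (0.59) and CKM (0.63) were upregulated at 72 h.

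**Figure D5:**
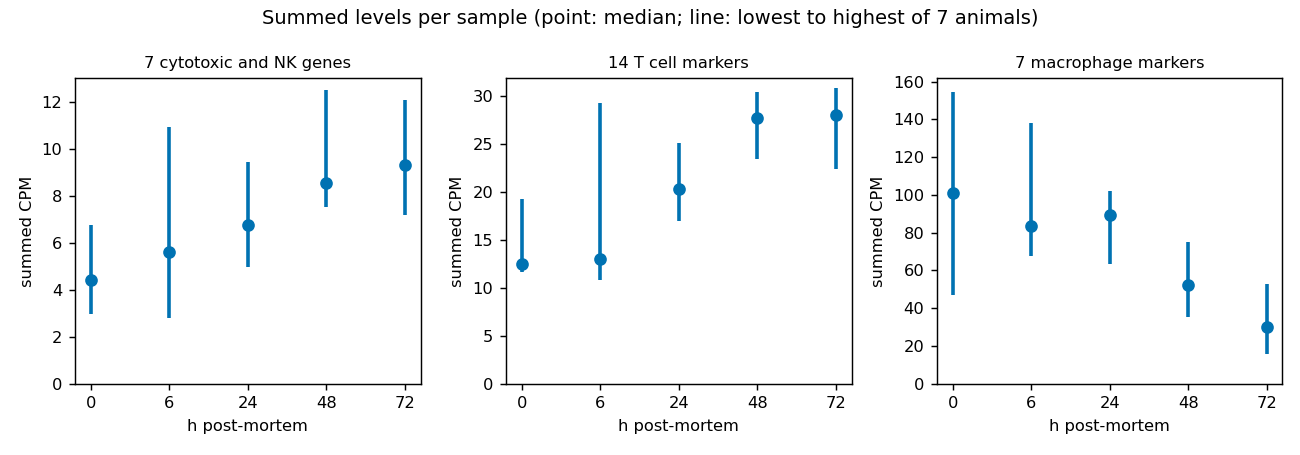
Summed TMM normalized CPM per sample (y axis, from 0, a different scale in each panel) of the 7 cytotoxic and NK cell genes, of 14 named T cell markers and of 7 named macrophage markers at each time point (x axis), with points at the median and lines from the lowest to the highest of 7 animals. The sums of the 7 genes were 2.96 to 6.78 CPM at 0 h and 7.2 to 12.1 at 72 h, and those of the macrophage markers were 47.1 to 155 and 16 to 53.

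The globin genes HBB and HBA, whose RNA comes from red blood cells, varied between libraries and had their highest median at 48 h. The summed globin level had a median of 0.217 CPM in the 0 h samples, 5.02 in those of 48 h and 0.406 in those of 72 h, with 72.1 CPM in the 48 h sample of animal 101. Animal 202 had 3.59 to 6.76 CPM of globin at all 5 time points. The lowest level at 48 h was that of animal 201, with 0.126 CPM of globin beside a summed level of 8.55 CPM for the 7 genes. At 6 h the library of animal 202, of 20864347 reads, was the lowest for 6 of the 7 genes, and that of animal 101 was the highest for 6 of the 7. With RIN as a covariate 5 of the 7 were called at 72 h, all but KLRD1 and CD96. The part of the cell type markers and of globin in the changes of the 7 genes was not tested.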

How the data were processed

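The authors trimmed reads with Trimmomatic 0.39, mapped them to ARS-UCD1.2 with STAR 2.7.0f and counted them per gene over the exons of the Ensembl annotation with featureCounts 1.6.4; strand handling is described both as strand specific and with the unstranded option. The deposited values are raw read counts, neither normalized nor filtered. Symbols came from the study's list of DE genes, read from a copy cut short for downregulation at 72 h, so genes that were never called, and 188 of 2256 genes downregulated at 72 h, have no name here.

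From these counts, edgeR 4.0.16 (R 4.3.3) was run on all 35 samples: filterByExpr with time point as group (minimum count 10), TMM, a negative binomial model with time point and animal as a block, and the quasi-likelihood test, with p-values of 14630 genes adjusted by Benjamini and Hochberg's method. Calls required FDR < 0.05 and over 1.5-fold change. Log2 values per sample used a prior count of 2. The code was tested on simulated data. DESeq2 1.42.0 and limma 3.58.1 served as alternatives, beside other scalings, filters, thresholds and left-out animals.

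Equal animal numbers mark cores of one carcass, which makes the time points paired. Deviations from time point means correlated within animals (median r of 0.58, 70 of 70 pairs over 0.1). Between animals the median was -0.12, with 24 of 525 pairs over 0.1. Removing the time point means by itself pushes values between animals below 0, so nothing is read from that sign. The 7 genes and all lists were chosen with earlier results of these data known. Named were the 7 genes, list genes called by 24 h, per list the 3 largest changes called at 48 and 72 h and any against the list's direction, and the 8 genes most alike in profile; pathway genes shown at time points where they were not called accompany such a call, and a gene named by this rule is not reported here. RNA integrity numbers came from the study's sample table.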

Additional observations from a re-analysis of the deposited data

Results flagged for a closer look

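In each of the 35 groups of 7 values (7 genes at 5 time points), the lowest and the highest log2 level were compared with the nearest value by Dixon's ratio at its 95% critical value, which flags about 1 in 20 groups by chance. Values of 5 groups stood out. KLRK1 was at 0.452 CPM in animal 107 at 48 h, where the next lowest animal had 0.832, and at 0.502 CPM in animal 206 at 72 h, next to 0.891; each value rested on 12 reads. KLRD1 was at 0.0419 CPM in animal 206 at 72 h, a single read, next to 0.253. PRF1 was at 0.729 CPM in animal 101 at 24 h, next to 0.387. CD69 was at 3.72 CPM in animal 103 at 48 h, next to 1.75, and this value rested on 104 reads.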

How the results depend on the processing

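Across 20 alternative settings, 533 of 535 recomputed log2 fold changes of the 7 genes against 0 h were above 0. The exceptions were CTSW and CCL5 at 6 h without animal 101, neither called. All settings refit the samples that chose the genes, so these signs are a description. With a filter of 1 CPM or more in 7 samples only CTSW and CD69 were tested, so that 2 of 7 were upregulated at 48 h and 2 at 72 h, 5 and 4 of the pathway genes were upregulated, 1 was downregulated at 48 h, and 2 of 7 differed between animals. In glmTreat's test against a fold change of 1.5, 0 of 7 were called at 24 and 48 h and 5 at 72 h, and the pathway genes gave 1 up and 0 down at 48 h and 4 up and 1 down at 72 h. With FDR alone, 1 pathway gene was higher at 6 h and 2 at 24 h, and 5 were lower at 48 h. With counts thinned to the smallest library, 6 of the 7 genes and not all of the pathway genes were tested. Of those 6, 5 were called at 48 h and 6 at 72 h, and 5 differed between animals. After thinning 1 pathway gene was upregulated at 24 h and 7 were at 72 h. With only the 14 samples compared 1 pathway gene was upregulated at 24 h. Without the animal block, the 7 genes gave 0, 4 and 6 calls from 24 h on, and 0 pathway genes were downregulated at 48 h. With RIN as a covariate, 2 of 7 were called at 24 h, 5 at 72 h, and 5 pathway genes were upregulated at 48 h. Leaving out 1 animal gave 0 to 2 of 7 called at 24 h (2 without animal 101, 0 without animal 107, 201 or 206), 5 to 6 at 48 h, 6 to 7 at 72 h, 4 to 7 that differed between animals (4 without animal 101) and a median r between the genes of 0.21 to 0.54; pathway genes upregulated numbered 8 to 13 at 48 h, 8 without animal 206. Library totals as the only scaling moved the median of all genes at 72 h to -0.16 and the upregulated share of all calls from 38.9% to 17.8%, and at 48 h from 32% to 18.7%; 6 of 7 were then called at 48 h and 6 at 72 h.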
